A study of Mus musculus with 14 samples.

Results

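The chaperonin genes are the 10 mouse genes for the folding chambers of the cytosol and the mitochondrion: the 8 subunits of the cytosolic chaperonin CCT (Tcp1, Cct2, Cct3, Cct4, Cct5, Cct6a, Cct7 and Cct8) and the mitochondrial pair Hspd1 and Hspe1. They were found by gene name among the 36413 gene names of the array's deposited value table, and all 10 were among the 25896 gene names bright enough to be tested. The study asked how tumor cells and fibroblasts, with and without the heat shock transcription factor HSF1 in the fibroblasts, change each other's expression in shared culture. Total RNA of 7 groups was hybridised to 1-colour Agilent arrays, 2 arrays per group: D2A1 mouse breast tumor cells taken from culture with Hsf1 -/- mouse embryonic fibroblasts (null MEFs), D2A1 cells taken from culture with Hsf1 +/+ MEFs (WT MEFs), D2A1 cells grown alone, null MEFs taken from culture with D2A1 cells, null MEFs grown alone, WT MEFs taken from culture with D2A1 cells, and WT MEFs grown alone. All cells were cultured for 72 hours in DMEM with 10% FCS and the co-cultured cells were separated by sorting. MEFs that served as partners of profiled tumor cells had first been given mitomycin C, a DNA crosslinker that stops division, at 10 ug/ml for 2 hours, whereas the MEFs that were themselves profiled are not described as treated. D2A1 is a single tumor line. Nothing in the labels says whether replicates A and B came from separate cultures or MEF preparations. The p-values thus measure the spread between these arrays, which may be technical. Unless each genotype came from several preparations, an effect of Hsf1 loss cannot be told apart from other differences between the null and WT MEFs.

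CCT is a double ring in which each ring holds 1 copy of each of the 8 subunits. It folds tubulin and actin, the subunits of microtubules and microfilaments, and a set of WD40-repeat proteins and cell cycle regulators that cannot fold without it. In the mitochondrial matrix, Hspd1 (HSP60) forms the folding chamber and Hspe1 (HSP10) is its lid, and together they fold proteins imported from the cytosol. HSF1 is the transcription factor that induces chaperone genes under heat and other proteotoxic stress by binding repeats of the letters GAA and TTC, and Hspd1 and Hspe1 are known for lying head to head on a shared promoter.

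That shared promoter is printed here because it lies between both mitochondrial members and holds a match to such repeats. Whether HSF1 acts on it in these cells was not tested. In RefSeq on GRCm38.p6, Hspe1 starts at position 55088148 of chromosome 1 on the plus strand and Hspd1 starts at position 55087932 on the minus strand, which leaves 215 bases between them at chr1:55087933-55088147, read here on the plus strand. RefSeq gives Hspd1 another start, at 55088243. The capitals mark an element of 4 alternating units.
Hspd1 and Hspe1: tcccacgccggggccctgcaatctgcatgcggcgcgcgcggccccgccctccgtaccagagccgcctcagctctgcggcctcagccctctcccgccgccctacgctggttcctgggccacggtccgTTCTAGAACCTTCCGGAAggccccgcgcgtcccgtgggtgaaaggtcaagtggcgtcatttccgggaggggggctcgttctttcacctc
Each unit of the element, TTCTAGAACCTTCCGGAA, is TTC or GAA, spaced by 2 bases, which is the form of a heat shock element. It is 18 bases long and lies 126 bases from the Hspd1 start and 71 bases from the Hspe1 start. The 4-unit form (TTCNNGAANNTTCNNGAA or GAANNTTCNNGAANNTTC, on either strand) is present in 8 of 32851 promoter windows of RefSeq, which run from 250 bases before to 50 bases after a start, or 0.0244%.

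Windows were given for 9 of the 10 members, with 2 each for Cct2, Cct5 and Hspd1 and none for Cct4. A member was counted if any of its windows matched, whereas the shares count windows. The element above was thus counted in a window of Hspd1 and again in that of Hspe1. The 4-unit form and the 3-unit form (GAANNTTCNNGAA or TTCNNGAANNTTC, which lies within the 4-unit form and is present in 0.603% of all windows) were found only in the windows of Hspd1 and Hspe1 among these 9. The 2-unit form (GAANNTTC or TTCNNGAA, present in 15.1% of windows) was also found in those of Cct2, Cct5 and Cct6a. CCAAT, on either strand, was found for 5 of 9 members (Tcp1, Cct3, Cct6a, Cct7 and Hspd1) and in 37.4% of all windows. The E-box CACGTG was found for Hspd1 alone and in 7.15% of windows. Both of these matches of Hspd1 lie in the window of its other start, outside the printed shared stretch. The 250 bases before the Cct3 start (chr3:88296885-88297134, plus strand, GRCm38.p6) are printed because Cct3 differed most between tumor cells and MEFs among the CCT genes. The capitals mark 2 CCAAT boxes, which read ATTGG on this strand.
Cct3: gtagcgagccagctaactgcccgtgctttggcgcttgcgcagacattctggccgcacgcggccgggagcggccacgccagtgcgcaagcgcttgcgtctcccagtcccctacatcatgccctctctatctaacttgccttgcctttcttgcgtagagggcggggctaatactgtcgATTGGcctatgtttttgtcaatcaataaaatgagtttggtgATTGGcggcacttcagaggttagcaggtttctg
A match of these letters is a description of the window and says nothing of binding in these cells.

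Each member was read by 1 probe, except Hspe1 with 3. All 12 probes were well above background on each of the 12 arrays with a sound scanner file, and none was saturated. The scanner files of the other 2 arrays (replicate A of tumor cells with null MEFs and replicate A of tumor cells alone) were faulty, with 36.8% and 32.1% of spots marked as outliers, so levels are the authors' log2 values, in which those arrays correlate with the rest like any other. Replicates A lay on 1 slide and replicates B on the other. The targeted gene, Hsf1, had 10.52 and 10.67 in null MEFs with tumor cells and 10.07 and 9.97 in null MEFs alone, against 12.05 and 12.04 in WT MEFs with tumor cells and 12.01 and 11.69 in WT MEFs alone (log2, replicate A and then B, as in all pairs of values here). Its probe was well above background on each of the 12 sound arrays, those of null MEFs included. D2A1 cells alone carried the keratin Krt18 at 16.50 and the claudin Cldn3 at 9.83, but Epcam and Cdh1 were not well above background there. Of the 14 fibroblast markers, 9 were well above background in tumor cells alone, with a summed linear level of 30682 to 34489, against 482120 to 514420 in null MEFs alone and 982370 to 983440 in WT MEFs alone.

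The sorted cells held RNA typical of their partners. The summed fibroblast markers reached 96677 to 231040 in tumor cells with null MEFs and 118260 to 121800 in tumor cells with WT MEFs. The 12 tumor or epithelial markers, summed, reached 27931 to 41330 in null MEFs with tumor cells against 4045 to 4876 in null MEFs alone, and 74063 to 85324 in WT MEFs with tumor cells against 1050 to 1187 in WT MEFs alone. Tumor cells alone had 92731 to 96662. There the sum followed Krt18, the highest of the 12 at 16.50. Krt18 had 16.26 in WT MEFs with tumor cells, close to 16.29 in tumor cells with WT MEFs, and 8.01 in WT MEFs alone. In null MEFs it had 14.87 with tumor cells and 7.65 alone. Krt19 went the other way, at 11.84 in null and 8.71 in WT MEFs alone, and was not well above background in tumor cells alone. The sums are thus no signature of 12 genes. From genes at least 32-fold higher in the partner cell type when alone, the level in sorted cells was estimated as a share of a partner level. That level came from partner cells profiled from co-culture with the same MEF genotype and replicate letter. It need not be the same culture: MEFs partnering profiled tumor cells had mitomycin C, and the profiled MEFs are not described as treated. What this does to the share was not tested. The shares were 9.79% and 22.1% in tumor cells with null MEFs, 7.51% and 7.44% in tumor cells with WT MEFs, 7.58% and 10.3% in null MEFs with tumor cells, and 37.6% and 38.5% in WT MEFs with tumor cells. The share for WT MEFs with tumor cells rested on 77 genes, with quartiles of 27.6% and 48.0% on slide A and 26.9% and 47.4% on slide B. The summed fibroblast markers there were 792140 to 843930, against 982370 to 983440 in WT MEFs alone, a smaller fall than by that share. Whether the subtraction removes too much was not tested. Co-culture differences of the deposited values that passed are given with the partner share subtracted too, where a gene is named. The single-probe values of Hspe1 were not subtracted. Hsf1 was higher in null MEFs with tumor cells than alone, by 0.58 ± 0.12 (limma adjusted p = 0.027), or 0.19 after subtraction (0.91). In tumor cells with null MEFs against alone it differed by -0.46 ± 0.12 (adjusted p = 0.023), or -0.28 after subtraction (0.18). Null against WT MEFs in co-culture gave -1.45 ± 0.12 (adjusted p = 1e-05), or -1.14 after subtraction (7.4e-05). In bulk RNA of this kind, fewer cells of a type and less RNA per cell cannot be told apart. Macrophage and endothelial marker sums stayed at 1072 or less on every array.

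**Figure D1:**
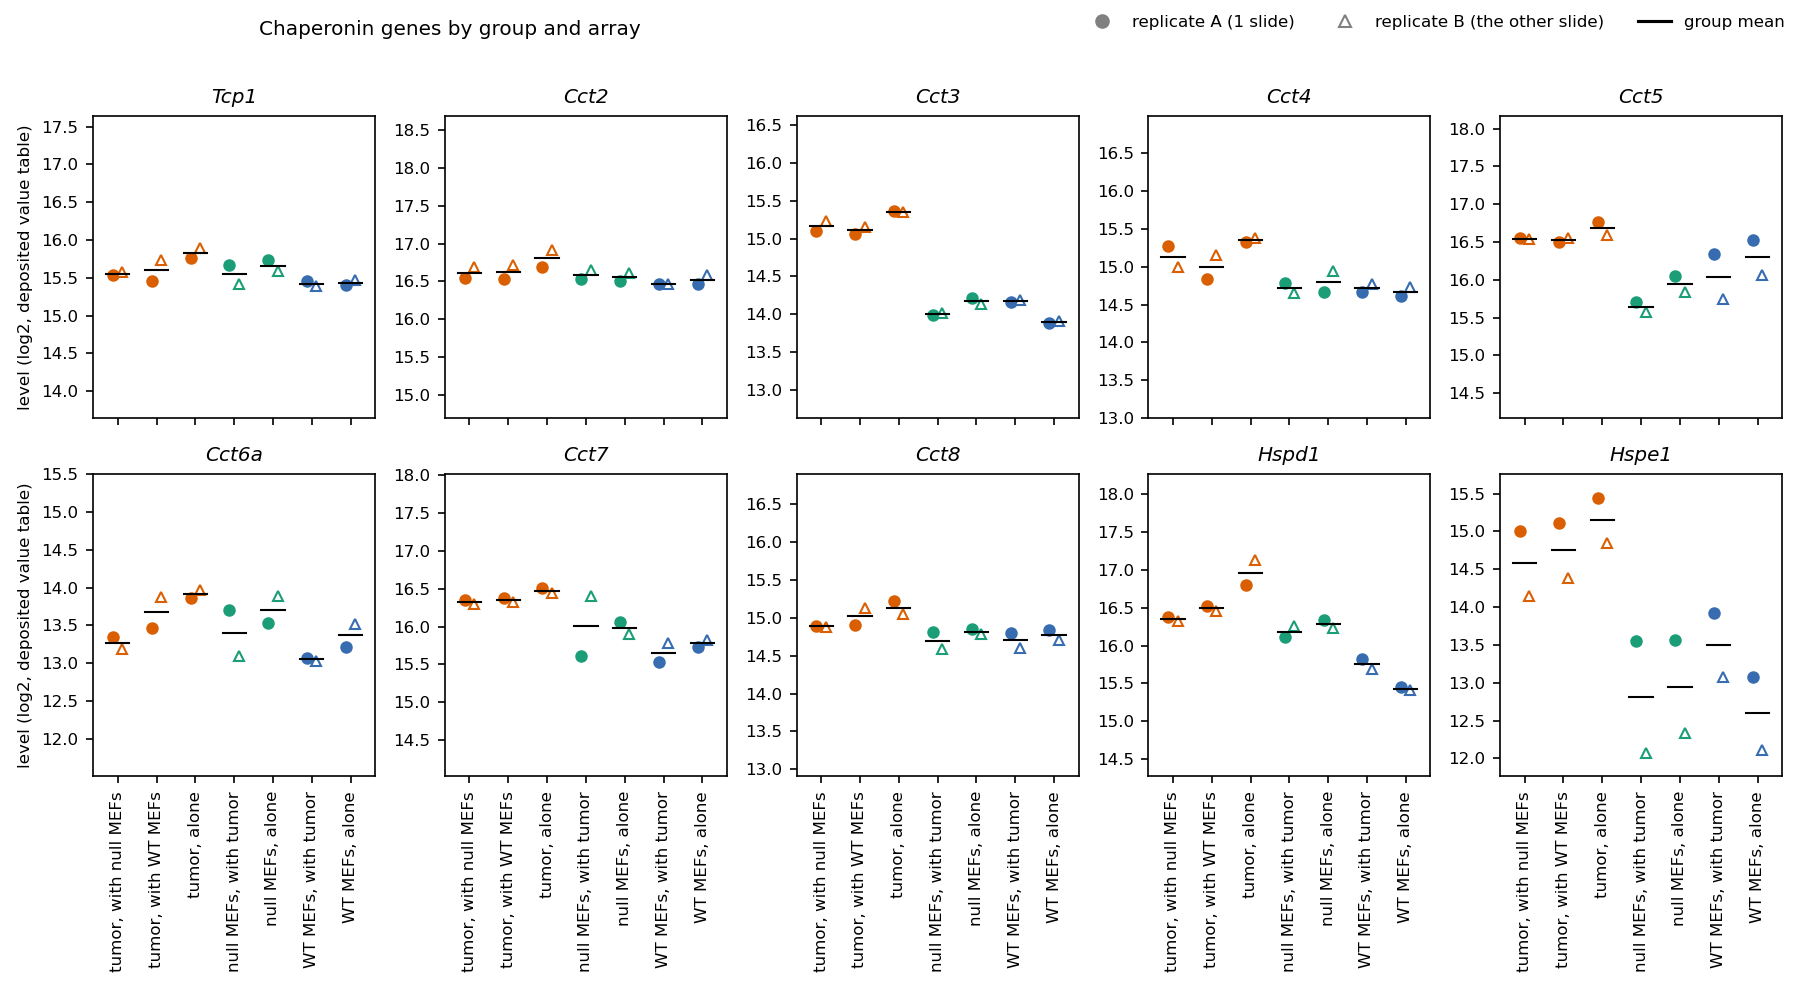
Log2 level of each of the 10 chaperonin genes (vertical axis, deposited value table, each panel spanning 4 log2 units) in the 7 groups (horizontal axis), with replicate A as filled circles, replicate B as open triangles and the group mean as a bar. Every tumor array lies above every MEF array for Cct3, Hspe1 and, narrowly, Cct8, and the 2 replicates of Hspe1 lie far apart in every group.

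Tumor cells grown alone had the higher mean of all 10 chaperonin genes against either MEF line, and the largest differences were those of Hspe1, Hspd1 and Cct3 against WT MEFs and those of Hspe1, Cct3 and Cct5 against null MEFs. Against WT MEFs 7 of 10 members passed the test (limma adjusted p under 0.05), all higher, where 27.8% of all tested genes were called higher and 23.6% lower. Against null MEFs 5 of 10 passed, all higher, where 27.3% of all tested genes were called higher and 25.4% lower. The comparisons share the tumor arrays. The median log2 difference over the 8 CCT genes was 0.47 against WT MEFs and 0.40 against null MEFs, beside 0.08 and 0.07 over all tested genes.

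Among the CCT genes, Cct3, the gamma subunit, stood apart. It had 15.37 and 15.35 in tumor cells alone, against 14.21 and 14.14 in null MEFs alone and 13.88 and 13.92 in WT MEFs alone, so no group overlapped another. The log2 difference was 1.18 ± 0.09 (SE, 2.27-fold, limma adjusted p = 1.7e-06) against null MEFs and 1.46 ± 0.09 (2.74-fold, adjusted p = 3.6e-07) against WT MEFs. Cct4, the delta subunit, had 15.33 and 15.39 in tumor cells alone, against 14.66 and 14.95 in null MEFs and 14.61 and 14.73 in WT MEFs. Its differences of 0.55 ± 0.15 (adjusted p = 0.0092) and 0.69 ± 0.15 (adjusted p = 0.0027) both passed.

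The other CCT genes passed in 1 comparison or in none. Cct5, the epsilon subunit, was called against null MEFs only, at 0.74 ± 0.20 (adjusted p = 0.009), with 0.38 ± 0.20 against WT MEFs (adjusted p = 0.13). Tcp1 (alpha), Cct7 (eta) and Cct8 (theta) were called against WT MEFs only, at 0.40 ± 0.13, 0.69 ± 0.21 and 0.36 ± 0.13 (adjusted p = 0.024, 0.016 and 0.036), with 0.17, 0.49 and 0.32 against null MEFs (adjusted p = 0.30, 0.071 and 0.058). Cct2 (beta) and Cct6a (zeta) passed in neither comparison: Cct2 differed by 0.25 and 0.28 and Cct6a by 0.20 and 0.54 against null and WT MEFs. With the slide as a block Cct2 passed in both (adjusted p = 0.038 against null MEFs and 0.023 against WT MEFs), and Cct8 passed against null MEFs too (0.041). The 95% intervals without the block reach up to 0.55 for Cct2 and 1.02 for Cct6a against WT MEFs. Whether a gene's difference from null MEFs departs from its difference from WT MEFs is the comparison of the MEF lines given further on.

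Several of these calls rested on single arrays. Against WT MEFs, Tcp1 lost its call without tumor cells alone B (adjusted p = 0.12) or without either WT MEF array (0.11 and 0.065), and Cct7 and Cct8 lost theirs without tumor cells alone A (0.069 and 0.18), WT MEFs alone A (0.076 and 0.059) or WT MEFs alone B (0.051 and 0.18). Against null MEFs, Cct5 and Hspe1 lost theirs without tumor cells alone A (0.056 and 0.062) or null MEFs alone B (0.066 and 0.088), and Cct4 lost its call without null MEFs alone A (0.084). Hspe1 also missed the threshold against both in the scanner intensities of the 12 sound arrays (0.10 against null MEFs and 0.055 against WT MEFs). Cct3 and Hspd1 kept their calls with any 1 array of the compared groups left out.

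Both mitochondrial genes were higher in tumor cells alone than in either MEF line. Hspd1 had 16.80 and 17.13 in tumor cells alone, against 16.34 and 16.23 in null MEFs alone and 15.45 and 15.41 in WT MEFs alone. These are 3 separate levels, and the difference was 0.68 ± 0.12 (1.60-fold, adjusted p = 0.0009) against null MEFs and 1.53 ± 0.12 (2.90-fold, adjusted p = 2.2e-06) against WT MEFs. Hspe1 had 15.45 and 14.85 in tumor cells alone, against 13.57 and 12.33 in null MEFs alone and 13.08 and 12.12 in WT MEFs alone. Every tumor array was above every MEF array, with a difference of 2.20 ± 0.59 (4.59-fold, adjusted p = 0.0091) against null MEFs and 2.55 ± 0.59 (5.87-fold, adjusted p = 0.004) against WT MEFs.

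**Figure D2:**
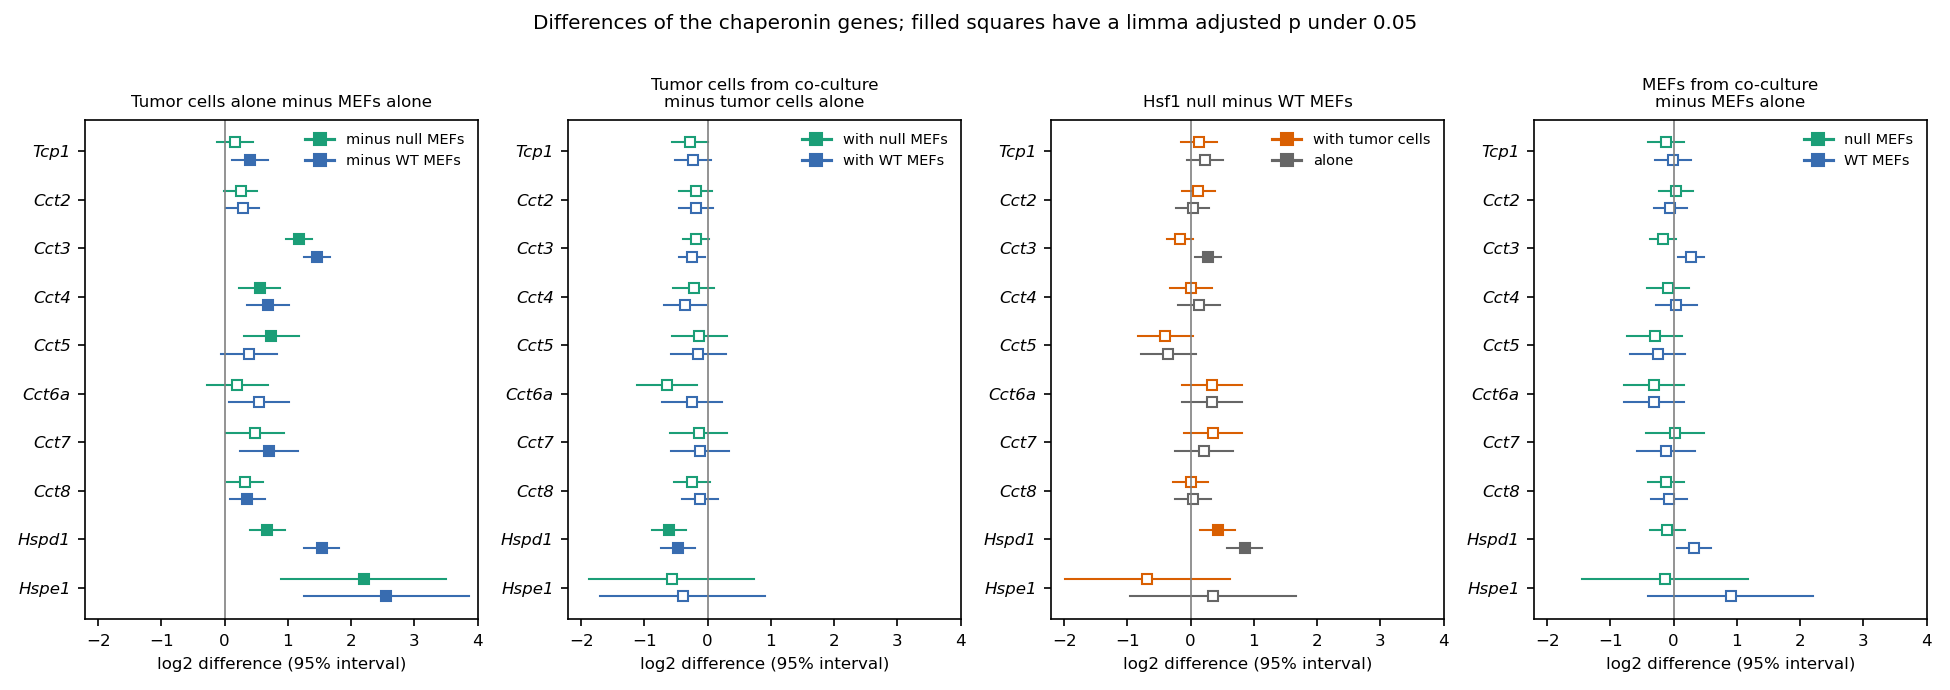
Log2 differences with 95% intervals (horizontal axis) for the 10 genes (vertical axis) in 4 kinds of comparison, drawn as filled squares where the limma adjusted p was under 0.05. Hspd1 is filled in 6 of the 8 comparisons drawn, and Hspe1 has the widest intervals.

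Hspd1 had a higher level in the null MEF line. The lines also differed in many other genes, by the shares given below in this paragraph. Whether the loss of Hsf1 or another feature of the lines lies behind a difference was not tested. That holds for every comparison of the MEF lines below, those of the gene lists included. Hspd1 had 16.34 and 16.23 in null MEFs alone, against 15.45 and 15.41 in WT MEFs alone. It was 0.86 ± 0.12 higher on the log2 scale (SE, 1.81-fold, limma adjusted p = 0.00031), and the difference was 0.90 on slide A and 0.82 on slide B. In co-culture it had 16.11 and 16.26 in null MEFs with tumor cells, against 15.82 and 15.68 in WT MEFs with tumor cells, which is 0.43 ± 0.12 higher (1.35-fold, adjusted p = 0.024). All 4 null arrays lay above all 4 WT arrays. With the partner share subtracted the co-culture difference was 1.18 (adjusted p = 0.00015). In the MEFs grown alone, where 17.9% of all tested genes were called higher and 15.9% lower, 2 of 10 members were higher and none lower. In co-culture, where 14.7% of all tested genes were called higher and 14.8% lower, Hspd1 was the only member called. After subtraction Cct3, Cct6a and Cct7 were called higher too (adjusted p = 0.00053, 0.020 and 0.016), with differences of 0.83 for Cct3 and 1.03 for Cct7. In that setting 19.9% of all tested genes were called higher and 13.3% lower, and their median was 0.10. The co-culture call was lost without WT MEFs with tumor cells A or B (adjusted p = 0.054 and 0.16) or without null MEFs with tumor cells B (0.12), and Hspd1 differed by 0.15 (adjusted p = 0.74) in the scanner intensities of the 12 sound arrays. Those intensities called Cct5 lower instead, at -0.97 (adjusted p = 0.016, and -0.90 with normexp and quantile normalisation), as did the deposited values without WT MEFs with tumor cells B, at -0.70 (adjusted p = 0.030). In the deposited values of all 14 arrays Cct5 differed by -0.40 ± 0.20 (adjusted p = 0.16).

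The other member called in MEFs grown alone was Cct3. It had 14.21 and 14.14 in null MEFs alone, against 13.88 and 13.92 in WT MEFs alone, without overlap. It was higher by 0.27 ± 0.09 (1.21-fold, adjusted p = 0.043). That call was lost when any 1 of the 4 arrays was left out (adjusted p = 0.093 to 0.20). In co-culture Cct3 had 13.99 and 14.02 in null MEFs, against 14.16 and 14.19 in WT MEFs, a difference of -0.17 ± 0.09 (adjusted p = 0.22). The other 7 CCT genes differed by -0.35 (Cct5) to 0.34 (Cct6a) between null and WT MEFs grown alone, and none passed. Hspe1, which shares a promoter with Hspd1, had 13.57 and 12.33 in null MEFs alone, against 13.08 and 12.12 in WT MEFs alone. Its difference of 0.35 ± 0.59 (adjusted p = 0.73) has a 95% interval of -0.95 to 1.66, which takes in the difference of Hspd1. In co-culture it had 13.56 and 12.07 in null MEFs, against 13.92 and 13.08 in WT MEFs, and differed by -0.68 ± 0.59 (adjusted p = 0.46, or 0.018 with the slide as a block), but by 1.80 after subtraction (adjusted p = 0.12). The direction of Hspe1 in co-culture thus turned with the subtraction.

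Tumor cells taken from co-culture had lower Hspd1 than tumor cells grown alone. Hspd1 had 16.37 and 16.33 in tumor cells with null MEFs and 16.53 and 16.46 in tumor cells with WT MEFs, against 16.80 and 17.13 in tumor cells alone. The co-culture arrays all lay below both arrays of tumor cells alone, which were themselves 0.33 apart. Hspd1 fell by 0.61 ± 0.12 with null MEFs (1.53-fold lower, adjusted p = 0.0066) and by 0.47 ± 0.12 with WT MEFs (1.38-fold lower, adjusted p = 0.034). It was the only member called in either comparison, where 9.6% (null MEFs) and 4.77% (WT MEFs) of all tested genes were called lower and 19.7% and 11.8% were called in either direction. With the partner share subtracted the differences were -0.59 (adjusted p = 0.028) and -0.42 (adjusted p = 0.15). With WT MEFs the call was lost without either array of that group (adjusted p = 0.093 and 0.15) or without tumor cells alone B (0.18), whereas with null MEFs it was kept with any 1 array left out. When tumor arrays were fitted without the MEF arrays, the adjusted p was 0.060 with null MEFs and 0.15 with WT MEFs. In the scanner intensities of the 12 sound arrays, which hold 1 array of tumor cells alone, the differences were -0.93 and -0.70 (adjusted p = 0.15 and 0.27).

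All 10 chaperonin genes had a lower mean in tumor cells from co-culture than in tumor cells alone, with either MEF line, and these comparisons share the tumor cells alone. The median over the 8 CCT genes was -0.21 in both, beside -0.09 with null MEFs and -0.04 with WT MEFs over all tested genes. Cct6a came nearest to a call, with 13.35 and 13.19 in tumor cells with null MEFs against 13.86 and 13.97 in tumor cells alone, a difference of -0.64 ± 0.21 (adjusted p = 0.061, or 0.17 after subtraction). The same gene had 13.46 and 13.88 in tumor cells with WT MEFs, and its difference of -0.24 ± 0.21 did not pass (adjusted p = 0.54). Cct4 differed by -0.22 with null MEFs and -0.36 with WT MEFs, and Cct7 by -0.14 and -0.12. Hspe1 had 15.01 and 14.15 in tumor cells with null MEFs and 15.12 and 14.39 in tumor cells with WT MEFs, against 15.45 and 14.85 in tumor cells alone. It was lower than tumor cells alone on both slides, by 0.44 and 0.70 with null MEFs, but the difference of -0.57 ± 0.59 did not pass (adjusted p = 0.54, and 0.052 with the slide as a block).

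Between tumor cells from the 2 kinds of co-culture no member was called by limma, where 9.49% of all tested genes were called. None had an unadjusted p under 0.05, as 23.2% of all tested genes had. Hspd1 differed by -0.14 ± 0.12 between tumor cells with null MEFs and tumor cells with WT MEFs, with a 95% interval of -0.42 to 0.13. The widest difference was -0.40 ± 0.21 for Cct6a (adjusted p = 0.30).

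In MEFs, co-culture with tumor cells gave no limma call among the members. In WT MEFs 10.5% of all tested genes were called, and 2 of 10 members had an unadjusted p under 0.05, as had 23.1% of all tested genes. In null MEFs 3.14% were called, and no member had an unadjusted p under 0.05, against 11% of all tested genes. Hspd1 had 15.82 and 15.68 in WT MEFs with tumor cells, against 15.45 and 15.41 in WT MEFs alone, a difference of 0.32 ± 0.12 (adjusted p = 0.14). Cct3 had 14.16 and 14.19 in WT MEFs with tumor cells, against 13.88 and 13.92 alone, a difference of 0.27 ± 0.09 (adjusted p = 0.095). Hspe1 had 13.92 and 13.08 in WT MEFs with tumor cells, against 13.08 and 12.12 alone, which is 0.84 higher on slide A and 0.97 higher on slide B. Its difference of 0.90 ± 0.59 did not pass (adjusted p = 0.43), but with the slide as a block the error was 0.19 and the adjusted p 0.011.

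These 3 genes are the members that differed most between tumor cells and WT MEFs. Whether tumor RNA in the sorted WT MEFs lies behind their co-culture differences was not tested. The sorted WT MEFs had the largest estimated share of tumor RNA. With that share subtracted every one of the 10 differences was below 0: Cct3 at -0.92 (adjusted p = 0.0013), Hspd1 at -0.45 (adjusted p = 0.088) and Hspe1 at -2.03 (adjusted p = 0.17). Over all tested genes the subtraction moved the median to -0.11, against -0.04 without it, and 2.51% were then called higher and 6.69% lower. The subtraction thus turned the direction of all 3, and Cct3 was then called lower. The share behind it rested on 77 genes with the wide quartiles given above. In null MEFs, with the smaller tumor share, Hspd1 had 16.11 and 16.26 with tumor cells, against 16.34 and 16.23 alone, and differed by -0.10 ± 0.12 (adjusted p = 0.93), or -0.12 after subtraction. Cct3 differed by -0.17 ± 0.09 in null MEFs (adjusted p = 0.60) and Hspe1 by -0.14 ± 0.59 (adjusted p = 0.99).

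**Figure D3:**
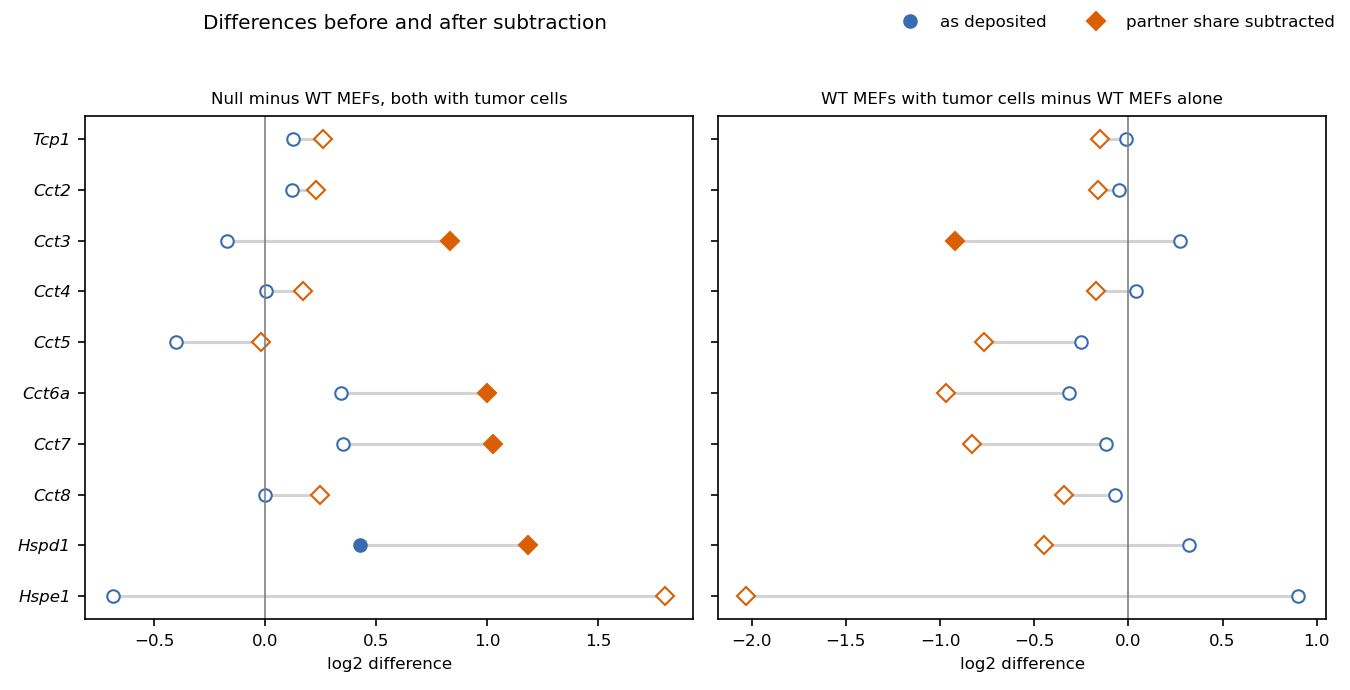
Log2 difference of the 10 genes (vertical axis) as deposited (circles) and with the estimated partner share subtracted (diamonds), filled where the limma adjusted p was under 0.05, for null minus WT MEFs, both with tumor cells, and for WT MEFs with tumor cells minus WT MEFs alone. Subtraction moved Cct3 in WT MEFs to -0.92 and Hspe1 to -2.03, where the deposited values gave 0.27 and 0.90.

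The direct test of whether null and WT MEFs answered tumor cells differently, where 3.03% of all tested genes were called, called no member with limma, and 2 of 10 had an unadjusted p under 0.05, as had 12.7% of all tested genes. The response of null MEFs minus that of WT MEFs was -0.44 ± 0.13 for Cct3 (adjusted p = 0.13), -0.43 ± 0.18 for Hspd1 (adjusted p = 0.33) and -1.04 ± 0.83 for Hspe1 (adjusted p = 0.77). After subtraction all 3 were above 0, at 0.56, 0.33 and 1.45 (adjusted p = 0.23, 0.70 and 0.80).

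The 3 probes of Hspe1 differed in how far the slides lay apart. The deposited value followed the mean of the 3 probes (r = 0.991 over the 12 sound arrays). On the scanner scale, log2 intensity minus the 75th percentile of the array, probe A_55_P1953063 (mm9 chr1:55147620-55147946, plus strand, reaching over 327 bases) had 0.65 and -2.81 in null MEFs with tumor cells on slides A and B, and 0.06 and -2.60 in WT MEFs alone. Probes A_55_P2089358 (chr1:55148023-55148082) and A_66_P124952 (chr1:55148026-55148085), which overlap, were brighter and varied less between slides: A_66_P124952 had 5.14 and 4.55 in null MEFs with tumor cells, against 5.31 and 4.97 in null MEFs alone, 5.68 and 5.59 in WT MEFs with tumor cells and 4.93 and 4.55 in WT MEFs alone. Its single sound array of tumor cells alone had 7.61.

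Read by the bright probes one at a time, a choice made after the data were seen, the tumor cells alone exceeded null MEFs alone by 2.86 ± 0.33 and 2.47 ± 0.30 (limma adjusted p = 0.00054 and 0.00073) and WT MEFs alone by 3.27 ± 0.33 and 2.87 ± 0.30 (adjusted p = 0.0003 and 0.00038). Null MEFs alone differed from WT MEFs alone by 0.41 and 0.40, with adjusted p = 0.34 and 0.31, or 0.098 and 0.089 with the slide as a block. WT MEFs with tumor cells differed from WT MEFs alone by 1.15 and 0.90 (adjusted p = 0.053 and 0.091, or 0.0081 and 0.017 with the block). For the response of null minus WT MEFs they gave -1.44 and -1.19, with adjusted p = 0.19 and 0.25, or 0.038 and 0.056 with the block. Null differed from WT MEFs with tumor cells by -1.03 and -0.79 (adjusted p = 0.035 and 0.065, or 0.005 and 0.011 with the block). The dim probe passed in none of these without the block.

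**Figure D4:**
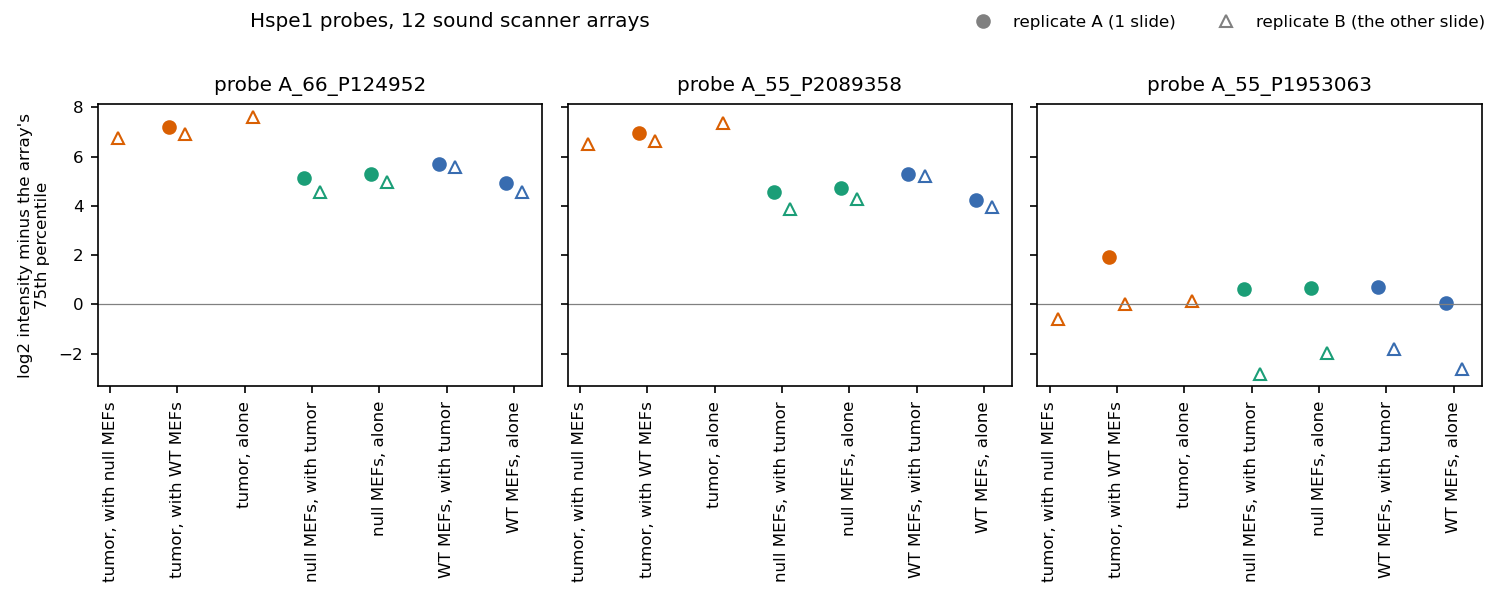
Log2 intensity minus the 75th percentile of the array (vertical axis) for the 3 Hspe1 probes in the 7 groups (horizontal axis) on the 12 sound arrays, with replicate A as filled circles and replicate B as open triangles. Probe A_55_P1953063 had 0.65 and -2.81 in null MEFs with tumor cells, whereas the replicates of the other probes lie close together.

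The order of the groups shows how the members vary. Hspd1 averaged 16.35 ± 0.03 in tumor cells with null MEFs, 16.49 ± 0.05 in tumor cells with WT MEFs and 16.96 ± 0.23 in tumor cells alone (SD, n = 2 in each group). In MEFs it averaged 16.18 ± 0.10 in null MEFs with tumor cells, 16.29 ± 0.08 in null MEFs alone, 15.75 ± 0.10 in WT MEFs with tumor cells and 15.43 ± 0.03 in WT MEFs alone. The order is thus tumor cells alone, the 2 tumor co-cultures, the null MEFs and the WT MEFs, and the 2 null MEF groups overlap, as do tumor cells with null MEFs and null MEFs alone. The tumor co-cultures did not overlap, but their difference did not pass. Cct3 averaged 15.17 ± 0.09, 15.11 ± 0.07 and 15.36 ± 0.01 in the same 3 tumor groups, and the MEF arrays lay from 13.88 to 14.21, with 14.17 ± 0.05 in null MEFs alone, 14.17 ± 0.02 in WT MEFs with tumor cells and 13.90 ± 0.02 in WT MEFs alone. Here the tumor co-cultures overlap each other, as do null MEFs alone and WT MEFs with tumor cells.

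The helpers of the chaperonins were called in both directions, at counts near the shares of all tested genes. Of all tested genes, 27.3% were called higher and 25.4% lower in tumor cells alone against null MEFs, and 27.8% and 23.6% against WT MEFs. Of 10 tested cofactors (the prefoldin subunits, which pass unfolded actin and tubulin to CCT, and phosducin-like and related proteins), 2 were higher and 2 lower in tumor cells alone against null MEFs alone, and 4 higher and 2 lower against WT MEFs alone. The prefoldin subunit Pfdn1 was higher by 1.79 ± 0.15 (adjusted p = 2.9e-06) and 1.06 ± 0.15 (adjusted p = 0.00015), and Pdcl, a phosducin-like protein, was lower, at -0.63 and -0.60. Between null and WT MEFs 1 of the 10 was higher and 1 lower alone, and 2 were lower in co-culture. Over all tested genes 17.9% were called higher and 15.9% lower alone, and 14.7% and 14.8% in co-culture. Pfdn2, another prefoldin subunit, was higher in null MEFs alone, at 0.94 ± 0.28 (adjusted p = 0.022). Pfdn1 was lower in null than in WT MEFs, at -0.72 ± 0.15 alone (adjusted p = 0.0033) and -1.08 ± 0.15 in co-culture (adjusted p = 0.00031).

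Tubulins, which CCT folds, and tubulin cofactors were called in both directions. Of 16 tested, 8 were higher and 2 lower in tumor cells alone against null MEFs and 5 higher and 5 lower against WT MEFs. Further, 6 were lower and none higher in null against WT MEFs in co-culture, and 7 were lower and 1 higher in MEFs grown alone. The beta tubulin Tubb2b was lower in null MEFs, at -3.97 ± 0.29 alone (adjusted p = 2.5e-06) and -2.77 ± 0.29 in co-culture (adjusted p = 5.3e-05). Tubb6, another beta tubulin, was lower, at -1.62 ± 0.12 and -1.08 ± 0.12. The shares called over all tested genes in these comparisons, and in those of the gene lists below, are given above. Co-cultured WT MEFs had 1 of the 16 higher and 2 lower than WT MEFs alone, and null MEFs none. In tumor cells 2 of the 16 were higher and 2 lower with each MEF line: Tubb6 fell by 0.64 with null MEFs and 0.62 with WT MEFs, and Tubb2b was higher by 1.09 and 1.38. The difference from WT MEFs alone was -4.81 for Tubb2b in tumor cells alone and -3.97 in null MEFs alone. Tumor cells and null MEFs thus lay closer together. The fibroblast markers in sorted tumor cells rose with both lines, and the cause of the Tubb2b rise was not tested. After subtraction Tubb2b differed by 1.03 with null MEFs and 0.30 with WT MEFs (adjusted p = 0.13 and 0.78), and Tubb6 by -0.49 and -0.60 (adjusted p = 0.026 and 0.019). Between null and WT MEFs in co-culture, subtraction left Tubb2b at -3.37, Tubb6 at -1.18, Pfdn1 at -0.67 and Hspa9 at -1.07 (adjusted p = 0.00013, 4.7e-05, 0.0052 and 0.0013).

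Of 4 other chaperonin-like genes, 1 was higher and 1 lower in tumor cells alone against null MEFs alone, and 2 were higher and 2 lower against WT MEFs alone. Bbs12 was higher in both, by 0.71 ± 0.12 and 1.55 ± 0.12 (adjusted p = 0.00044 and 1.3e-06). Cct6b, a testis-enriched relative of Cct6a, was higher in tumor cells from co-culture, by 0.79 ± 0.14 with null MEFs (adjusted p = 0.0034) and 0.51 ± 0.14 with WT MEFs (adjusted p = 0.044), and lower in null than in WT MEFs alone, at -0.68 ± 0.14 (adjusted p = 0.0036). The difference of tumor cells alone from WT MEFs alone was -0.78, close to the -0.68 of null MEFs alone. With the partner share subtracted the co-culture differences were 0.89 with null MEFs (adjusted p = 0.0071) and 0.50 with WT MEFs (adjusted p = 0.13). Mkks and Bbs12, of the chaperonin-like group needed to build the BBSome of the primary cilium, were higher in null than in WT MEFs alone, by 0.71 ± 0.15 and 0.84 ± 0.12 (adjusted p = 0.0044 and 0.00025). Bbs12 was also the gene of this list for which the responses of the MEF lines differed, by -0.87 ± 0.17 (adjusted p = 0.018). It was 0.93 higher in WT MEFs with tumor cells than in WT MEFs alone (adjusted p = 0.00043), and the cause of that rise was not tested. After subtraction the difference of the responses was -0.19 (adjusted p = 0.88) and that of WT MEFs 0.23 (adjusted p = 0.38).

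Of 14 genes of mitochondrial protein folding, import motor and quality control, 7 were higher and 2 lower in tumor cells alone against null MEFs and 8 higher and 2 lower against WT MEFs. Trap1, the mitochondrial HSP90, was higher by 1.01 ± 0.13 and 1.40 ± 0.13. The matrix HSP70 Hspa9, which hands imported proteins to the Hspd1 chamber, was lower in null than in WT MEFs, at -1.46 ± 0.16 alone (adjusted p = 5e-05) and -0.87 ± 0.16 in co-culture (adjusted p = 0.0023), where Hspd1 was higher. In null against WT MEFs alone, 2 of the 14 were higher and 2 lower.

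Of 16 tested HSF1-induced cytosolic chaperones, 11 were higher and 2 lower in tumor cells alone against null MEFs (median 0.90) and 12 higher and 1 lower against WT MEFs (median 0.67). Between null and WT MEFs grown alone 2 were higher and 4 lower, with Hsph1 (HSP110) lower at -1.60 ± 0.17 (adjusted p = 2.7e-05) and Fkbp4, an HSP90 co-chaperone, higher at 0.80 ± 0.12 (adjusted p = 0.00038). In tumor cells with null MEFs 4 of the 16 were lower than in tumor cells alone and none higher, among them Ahsa1, the activator of HSP90 ATPase, at -0.81 ± 0.11 (adjusted p = 0.00076), and with WT MEFs 1 was, the small heat shock protein Hspb1 at -0.69 ± 0.18 (adjusted p = 0.033). Hspa4l, an HSP110-family chaperone, was higher in WT MEFs with tumor cells than in WT MEFs alone, by 1.43 on slide A and 1.56 on slide B (adjusted p = 2.9e-05), and in null MEFs by 0.63 ± 0.13 (adjusted p = 0.027), and the difference between these responses was -0.87 ± 0.19 (adjusted p = 0.035). It was 2.73 ± 0.13 higher in tumor cells alone than in WT MEFs alone. The cause of the Hspa4l rise in sorted MEFs was not tested. After subtraction it was below 0 in WT MEFs (adjusted p = 0.060) and differed by 0.03 in null MEFs, and the responses differed by 1.03 (adjusted p = 0.41). For Ahsa1 and Hspb1 in tumor cells the subtracted values were -0.77 and -0.68 (adjusted p = 0.0044 and 0.11).

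By Pearson's r over the 14 arrays, the genes most like the mean of the 8 CCT genes were Orc2l, Mre11a, Gm5593, Bub1 and Zbtb41 (r = 0.982 to 0.984). Those most like the mean of Hspd1 and Hspe1 were LOC676813, a feature named only by an interval of chromosome 12, Gm5697, Gm8529 and LOC100043444 (r = 0.976 to 0.986). The 14 points are 6 tumor and 8 MEF arrays of 1 platform and 2 slides.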

How the data were processed

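Expression was measured on 14 1-colour Agilent arrays (design 028005), 7 groups of 2. The authors' scanner files hold intensity values, background-subtracted and not scaled between arrays. The file headers name Feature Extraction 10.1.1.1 and the submitters' processing notes 9.1. The authors' value table holds deposited log2 values, 1 line per gene name; how they were scaled between arrays is not given in the sources used here, and 72.9% of its values occur identically on another array. Probe coordinates are mm9, per the file headers.

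Because 2 scanner files were faulty, the deposited log2 values were used, as laid down in the design. A gene was tested if well above background on both arrays of at least 1 group, where flags of the 2 faulty files were left out. Group means were fitted for all 14 arrays together with limma 3.58.1 in R 4.3.3 (lmFit, eBayes, 7 residual degrees of freedom). P-values were adjusted by Benjamini-Hochberg over all 25896 tested genes, with a threshold of 0.05. The fit was tested on simulated data.

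The partner share was the median, over genes at least 32-fold higher in the partner alone, of the linear level in excess of the same cells alone, divided by the level in the sorted partner on the same slide. That share of the partner was subtracted and the rest divided by 1 minus the share. For Hspe1, whose value averages 3 probes on the log scale, this is rough. The number of arrays limits precision.

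The members and gene lists were chosen with earlier results of these data known. All 10 members, Hsf1, up to 3 called genes per list and comparison with the smallest p, and the 5 genes most like each profile were named. Pfdn6 and Hspa1b of the lists were not tested. Slides were not treated as pairs in the main test, although same-lettered arrays shared part of their spread. Their deviations correlated by 0.092 to 0.599 over 21 group pairs, 20 of them over 0.1. Results with the slide as a block are therefore given beside several of the main ones. Promoters are from RefSeq (GRCm38.p6).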

Additional observations from a re-analysis of the deposited data

How the results depend on the processing

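Of 215 recomputed differences of called members, 203 kept their direction and 144 their call. Many directions could not change. Adding the slide as a term, dropping the filter on dim genes and fitting each cell type alone leave a difference as it was. Subtraction likewise leaves differences between groups grown alone unchanged. The count of kept directions is therefore no measure of robustness. The replicate block (slide as a term) kept the calls of all 17 called differences, and so did quantile normalisation. With the block, 8 members were called in tumor cells alone against WT MEFs (adding Cct2) and 7 against null MEFs (adding Cct2 and Cct8). With it, 1 member was called in WT MEFs with tumor cells against WT MEFs alone (Hspe1, higher) and 2 in null against WT MEFs with tumor cells (Hspe1 lower beside Hspd1). Fitting each cell type alone called 0 members in tumor cells with null or with WT MEFs against tumor cells alone, and so did the scanner intensities of the 12 sound arrays, scaled to the 75th percentile or by normexp and quantile. Both of these scanner settings, and no filter on dim genes, called 1 in null against WT MEFs alone. In tumor cells alone against null MEFs alone the scaled scanner intensities called 8 and the normexp ones 3. Subtracting the partner share called 0 in tumor cells with WT MEFs against alone, 1 in WT MEFs with tumor cells against alone, 1 in null against WT MEFs alone, 4 in null against WT MEFs with tumor cells and 4 in tumor cells alone against WT MEFs alone; groups grown alone were not altered, so these last counts moved with the shared spread. Leaving out the 2 arrays with faulty scanner files, added after seeing the data, called 3 in tumor cells alone against null MEFs. In null against WT MEFs with tumor cells, both 12-array scanner settings called Cct5, lower, in place of Hspd1. Scanner intensities of all 14 arrays, faulty ones included, called 0 members in tumor cells with null or WT MEFs against alone, in null against WT MEFs alone or with tumor cells, and in tumor cells alone against either MEF line, and turned 12 differences: Hspd1 in tumor cells with null and WT MEFs (2.69 and 2.61), Cct3, Cct4, Cct5 and Hspd1 in tumor cells against null MEFs (-1.88, -0.66, -1.95 and -2.06), and Tcp1, Cct3, Cct4, Cct7, Cct8 and Hspd1 in tumor cells against WT MEFs (-1.60, -1.65, -0.49, -1.12, -2.50 and -1.21). Leaving out 1 array at a time gave 1 called member in tumor cells with null MEFs against alone, 0 to 1 with WT MEFs, 1 in null against WT MEFs alone, 0 to 2 in co-culture, 3 to 5 in tumor cells alone against null MEFs and 4 to 6 against WT MEFs, and 0 elsewhere. With 1 array in a group, that array is assumed to vary like the others. The cause of these moves was not tested.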
